A study of Mus musculus with 574 samples.

Results

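Dll3 cells were single cells of the developing mouse ventral midbrain with at least 10 RPKM (reads per kilobase of transcript, scaled to sequencing depth) of Dll3, a divergent Delta-family protein. There were 39 of them at E11.5 (E for embryonic day), 64 at E12.5 and 43 at E13.5, of 413 single cells at these stages and 550 single cells in the series. They were set against 32, 94 and 87 Dll3-negative neurons of the same stages, which had under 10 RPKM of Dll3 and at least 10 RPKM of Stmn2, a tubulin-binding phosphoprotein of neurons. The other 19, 20 and 15 cells, with under 10 RPKM of both transcripts, are called remaining cells. All cells came from C57BL/6 embryos heterozygous for Lmx1a-EGFP, a reporter of the LIM homeobox gene Lmx1a, so that every class carried this genotype. Smart-seq2, which copies whole transcripts into cDNA, was used throughout. The labels name no embryo, so each stage counted as 1 sample and cells were not replicates of a stage. No p-values are therefore given, and the 95% exact intervals on shares of cells cover counting error only. The cells were chosen by their measured levels of Dll3 and Stmn2, so the gene differences between the classes describe those cells and were not tested.

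Delta ligands on one cell activate Notch receptors on its neighbours, which then express Hes repressors and remain progenitors. Dll3 does not activate Notch on neighbouring cells but acts inside the cell that makes it, and proneural basic helix-loop-helix (bHLH) factors switch it on as cells start to differentiate. In the ventral midbrain the progenitors are radial glia-like cells, and their daughters include dopamine neurons and neurons of the subthalamic lineage.

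The upstream sequences of 3 genes are shown because Dll3 defines the class, Gadd45g is a marker given for it, and Nhlh1 is a bHLH gene with its highest average in it. Each is the 250 bases before the annotated transcript start in RefSeq (build GRCm38.p6), written 5′ to 3′ on the strand of the gene. Capitals mark CAGATG and CAGCTG, E-boxes of the kind bHLH factors bind, and TGGGAA, the core bound by the Notch effector Rbpj, all searched on both strands and none overlapping another. The windows are chr7:28301786-28302035 (minus strand), chr13:51846425-51846674 (plus strand) and chr1:172057597-172057846 (minus strand).
Dll3: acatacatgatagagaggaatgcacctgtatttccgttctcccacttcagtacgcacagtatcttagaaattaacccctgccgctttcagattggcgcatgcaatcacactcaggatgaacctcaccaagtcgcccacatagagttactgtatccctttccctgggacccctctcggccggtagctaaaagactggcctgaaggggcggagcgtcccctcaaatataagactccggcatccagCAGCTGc
Gadd45g: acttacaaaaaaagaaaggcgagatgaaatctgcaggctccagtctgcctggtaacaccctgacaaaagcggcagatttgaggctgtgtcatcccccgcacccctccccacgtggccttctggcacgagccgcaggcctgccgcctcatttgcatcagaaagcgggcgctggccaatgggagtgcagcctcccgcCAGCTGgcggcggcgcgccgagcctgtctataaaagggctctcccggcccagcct
Nhlh1: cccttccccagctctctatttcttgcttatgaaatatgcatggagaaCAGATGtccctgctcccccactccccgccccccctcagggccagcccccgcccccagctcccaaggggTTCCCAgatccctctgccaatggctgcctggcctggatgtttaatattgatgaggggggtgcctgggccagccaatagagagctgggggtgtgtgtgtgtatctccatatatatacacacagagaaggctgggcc
The Dll3 and Gadd45g windows each held 1 CAGCTG, and the Nhlh1 window held 1 CAGATG and 1 TGGGAA, the last on the other strand as TTCCCA. Windows were matched to 8198 genes, out of the 12171 genes compared below together with Dll3 and Stmn2, which set the gate. A gene was counted if any of its windows held the letters. CAGATG was present in 17.2% of higher genes, 13.6% of lower genes, 11.4% of compared genes and 16.3% of all genes with a window. CAGCTG was present in 11.2% of higher genes, 22.1% of lower genes, 13.9% of compared genes and 14.7% of all genes with a window. TGGGAA was present in 23.3% of higher genes, 25% of lower genes, 23.1% of compared genes and 24.1% of all genes with a window. A match is a description of letters, not of a bound site.

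Few cells lay at the edges of the gate. The lowest Dll3 levels inside were 10.3, 15.5, 18 and 22.4 RPKM, and the highest outside were 7.19, 6.31, 5.99 and 4.24 RPKM. The median inside was 353 RPKM and the highest value 2343 RPKM, and most of the 267 cells outside were at 0. For Stmn2 the lowest levels inside were 10.8, 11.7 and 15.9 RPKM and the highest outside 8.46, 7.63 and 6.41 RPKM. At E11.5, E12.5 and E13.5, Dll3 cells made up 43.3% (32.9 to 54.2), 36% (28.9 to 43.5) and 29.7% (22.4 to 37.8) of the cells, and neurons 35.6%, 52.8% and 60%. The intervals for Dll3 cells overlap between every pair of stages.

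**Figure D1:**
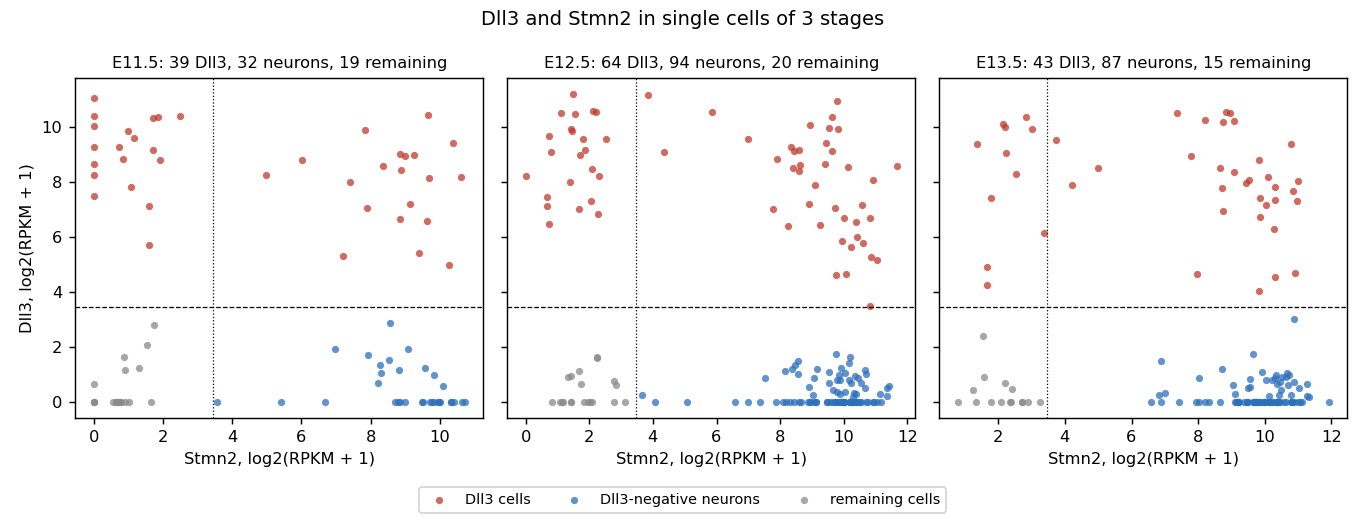
Dll3 level (vertical axis) against Stmn2 level (horizontal axis), both as log2(RPKM + 1), in each single cell of 3 stages, with lines at 10 RPKM. Dll3 cells (red) lie on both sides of the Stmn2 line, 93 of them to its right and 53 to its left.

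The gate did not pick out a single neuronal state. Stmn2 reached 10 RPKM in 51.3% (34.8 to 67.6), 64.1% (51.1 to 75.7) and 74.4% (58.8 to 86.5) of Dll3 cells at the 3 stages. Tubb3, the neuronal beta-tubulin, reached it in 96.6% of Dll3 cells, 100% of neurons and 48.1% of remaining cells. Of the other markers given for a neurogenic precursor, Gadd45g and Mfng were both at 10 RPKM or more in 39% of Dll3 cells, 2.82% of neurons and 9.26% of remaining cells. They were found together in 24 of the 93 Dll3 cells with Stmn2 and 33 of the 53 without, counts that pool the 3 stages. In mean log2(RPKM + 1), Dll3 cells with Stmn2 minus those without, Gadd45g differed by -4.87, -2.47 and 0.09 at E11.5, E12.5 and E13.5. Mfng differed by -3.92, -3.88 and -4.07. Since a label of precursors applies to some of the Dll3 cells only, the class is called Dll3 cells, and results are also given by Stmn2.

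The depth behind the values is rough, since the file holds no read counts. The steps between the lowest values gave medians of about 1.29 M reads in Dll3 cells, 1.48 M in neurons and 1.12 M in remaining cells, with E11.5 the shallowest stage (0.676 M in Dll3 cells and 0.776 M in neurons). Median numbers of genes at 1 RPKM or more were 4187, 4205 and 4032 in the same order. No pair of cells had identical values. All 7 microglia genes in the file were under 10 RPKM in every cell of these classes. At least 1 of 7 red blood cell genes reached 10 RPKM in 15.1% of Dll3 cells, 18.3% of neurons and 16.7% of remaining cells, with highest summed levels of 482, 272 and 284 RPKM. For 6 endothelial genes the shares were 4.79% of Dll3 cells, 1.41% of neurons and 1.85% of remaining cells, and for 7 genes of mesenchyme and pericytes 4.79% of Dll3 cells, 0.939% of neurons and 16.7% of remaining cells. Median summed levels of these lists were 0 in each class, and their part in the results was not tested.

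Genes were compared by the difference in mean log2(RPKM + 1), Dll3 cells minus neurons, within each stage. A gene was counted where it differed by at least 1, which is 2-fold on this scale, in the same direction at all 3 stages. Of 12171 genes, 1.36% were higher in Dll3 cells and 207 (1.7%) were lower, and the median difference over all genes was 0.06. Against the remaining cells the median was -0.38 for the higher genes and 1.09 for the lower ones. Dropping a stage asks for fewer stages: 277 genes were higher and 326 lower without E11.5, and 368 were higher without E13.5. With a pseudocount of 10 RPKM 39 were higher and 62 lower, and at a size of 2 these were 20 and 39. By the ratio of mean RPKM in place of mean log2 values, 421 genes were higher and 261 lower, so that the split between the directions turned round. At every stage, 32 of the higher genes were lower than in remaining cells by at least 1, and 61 of the lower genes were higher than in them. The share of all genes past this size against remaining cells is not given here, so these counts have no background. For the genes below, the lowest value over the 3 stages was 0 in Dll3 cells and in neurons unless another is given.

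**Figure D2:**
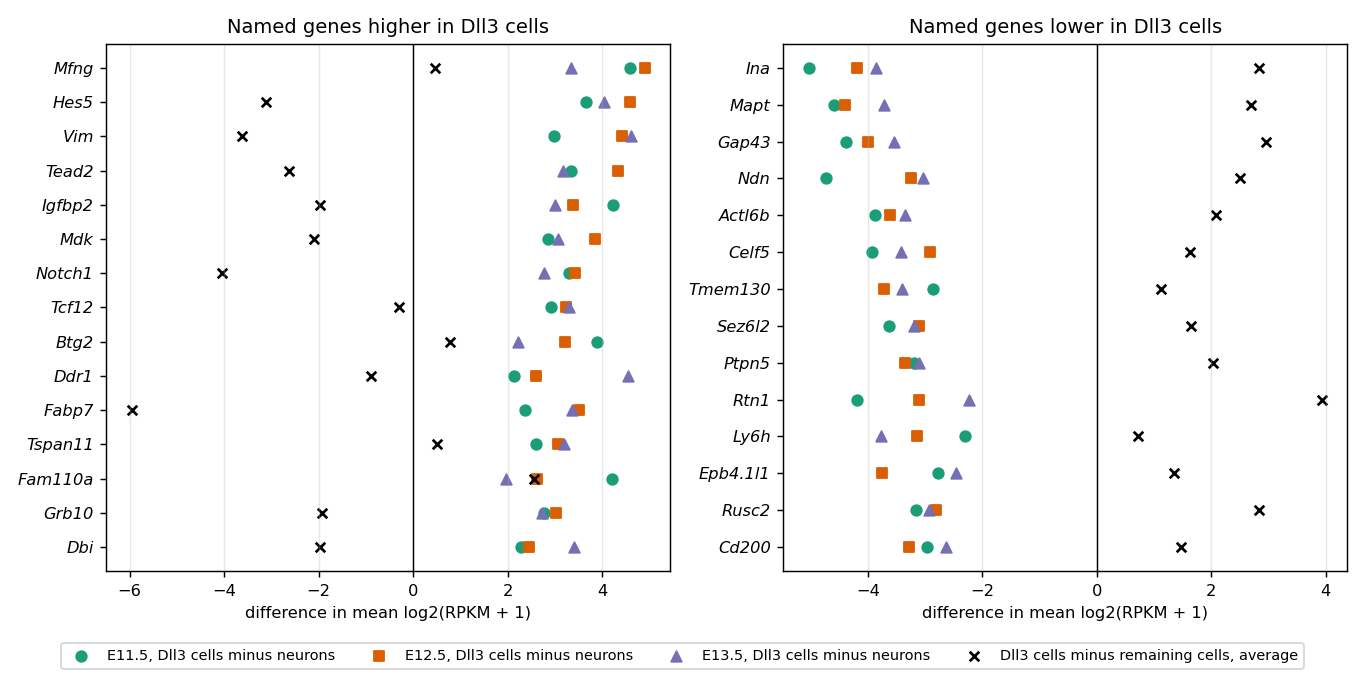
Differences in mean log2(RPKM + 1) (horizontal axis) of 15 higher and 14 lower genes with large average differences (vertical axis). Coloured symbols give Dll3 cells minus neurons at each stage, and crosses Dll3 cells minus remaining cells averaged over the stages. Crosses lie across 0 from the symbols for 11 of the 15 higher genes and all 14 lower ones.

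Among Notch ligands and their modifiers, Mfng had the largest difference. Mfng (Manic fringe, chr15:78755882-78773516, GRCm38.p6) adds sugars to Notch receptors and so alters their response to ligands. At E11.5 it had a median of 227 RPKM and a highest value of 1334 RPKM in Dll3 cells, against 0 and 1102 RPKM in neurons. At E12.5 the values were 274 and 1568 RPKM in Dll3 cells, against 0 and 922 RPKM in neurons. At E13.5 they were 0.967 and 1984 RPKM in Dll3 cells, against 0 and 126.9 RPKM in neurons. Most Dll3 cells were thus high at E11.5 and E12.5 and fewer at E13.5, and at each stage single neurons lay within the range of the Dll3 cells. Mfng reached 10 RPKM in 60.3% of Dll3 cells, 6.57% of neurons and 63% of remaining cells. Its difference from neurons was 4.58, 4.90 and 3.35 at the 3 stages, on average 4.28, the largest among the higher genes apart from Dll3, and 0.46 from remaining cells.

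Dll1, the main activating Delta ligand, was present in 34.9% of Dll3 cells, 18.8% of neurons and 27.8% of remaining cells. At E11.5 it had a median of 3.93 RPKM and a highest value of 1547 RPKM in Dll3 cells, against 1.64 and 406 RPKM in neurons. At E12.5 the values were 1.33 and 3446 RPKM in Dll3 cells, against 0 and 656 RPKM in neurons, and at E13.5 0 and 684 RPKM in Dll3 cells, against 0.247 and 387 RPKM in neurons. The ranges overlapped throughout, and at E13.5 the shares at 10 RPKM or more were 16.3% (6.81 to 30.7) in Dll3 cells and 25.3% (16.6 to 35.7) in neurons. The differences were 1.98, 2.17 and -0.44, so that the direction was not the same at the last stage. Of the 10 ligands and modifiers compared, 1 was higher (Mfng) and 1 lower (Dner) at every stage, and the median difference was 0.10. Dner, a Delta- and Notch-like transmembrane protein of neurons, averaged 91.9 RPKM in Dll3 cells, 195 RPKM in neurons and 24.9 RPKM in remaining cells. Lfng, Lunatic fringe, differed by 1.14 on average from neurons and by -3.85 from remaining cells. Mib1, the ubiquitin ligase that Delta ligands need in the sending cell, differed by 1.47 and -0.31.

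On the receiving side of the pathway Dll3 cells lay between the other classes. Notch1, the main receptor of neural progenitors, had a median of 0.843 RPKM and a highest value of 1202 RPKM in Dll3 cells, against 0.0260 and 581 RPKM in neurons over the 3 stages. It reached 10 RPKM in 45.2% of Dll3 cells, 3.76% of neurons and 96.3% of remaining cells. Hes5 (chr4:154960626-154962372), a Notch target that represses proneural genes, had a median of 4.15 RPKM and a highest value of 8364 RPKM in Dll3 cells, against 0 and 3163 RPKM in neurons, and it reached 10 RPKM in 47.9% of Dll3 cells, 6.57% of neurons and 83.3% of remaining cells. For both genes some Dll3 cells had almost none and others were as high as remaining cells, and the ranges of Dll3 cells and neurons overlapped. The differences from neurons at the 3 stages were 3.67, 4.59 and 4.03 for Hes5 and 3.30, 3.42 and 2.77 for Notch1, while from remaining cells they averaged -3.12 and -4.05. Of 10 receptors and targets compared, 3 were higher at every stage (Notch1, Hes5 and Id3, an inhibitor of bHLH factors) and 0 lower. The median difference was 0.96 from neurons and -2.92 from remaining cells. Hes1, another target, differed by 1.03 on average from neurons, Hey1 by 1.82 and Rbpj, the DNA-binding effector, by -0.06.

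**Figure D3:**
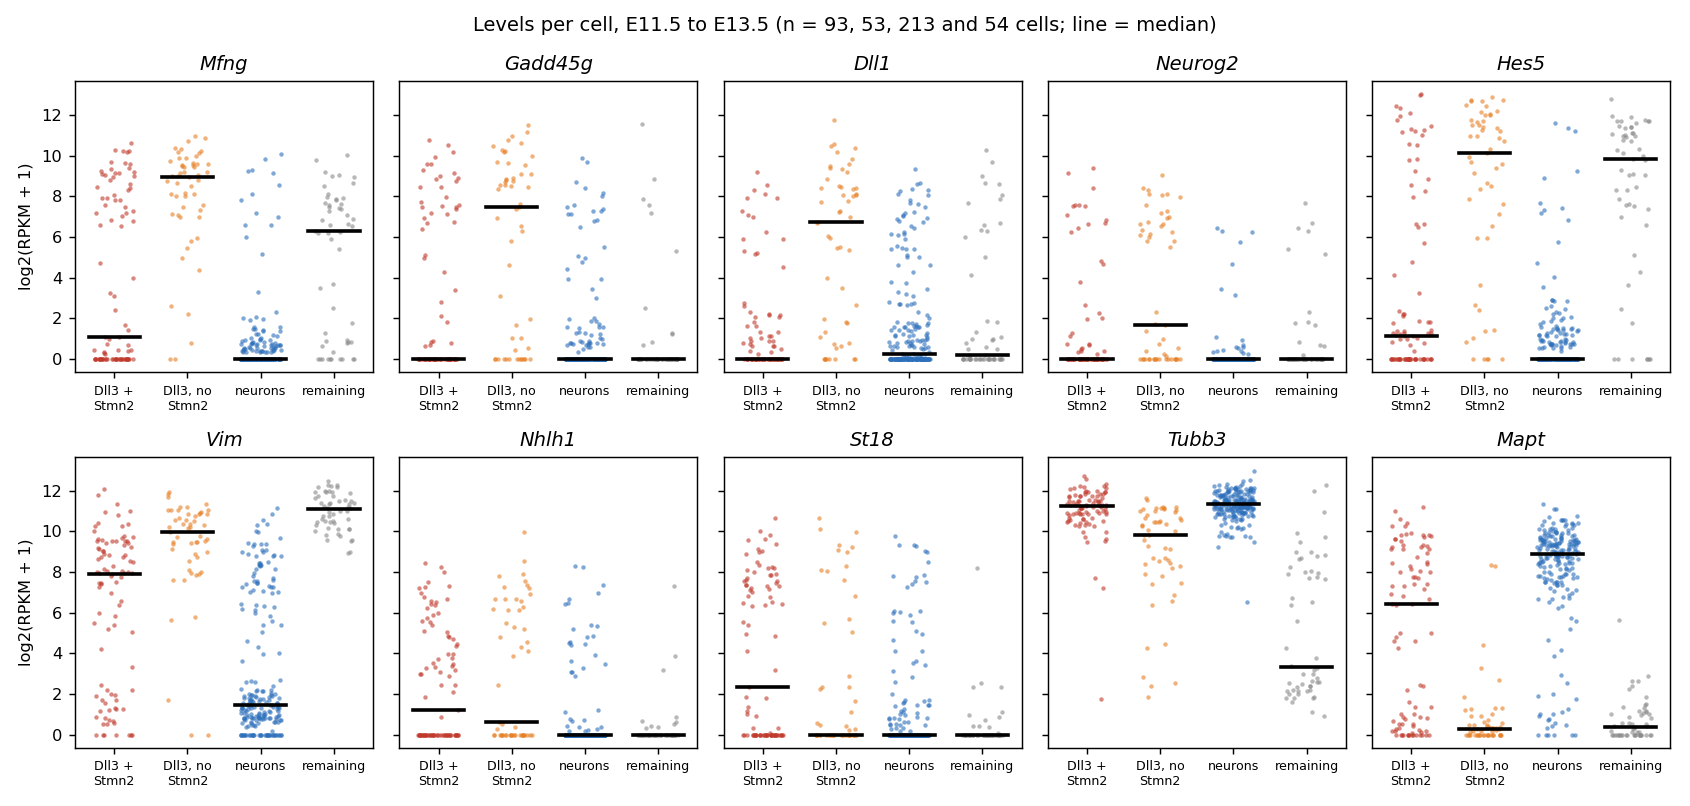
Levels as log2(RPKM + 1) (vertical axis) of 10 genes in each cell of the 3 stages: 93 Dll3 cells with Stmn2, 53 Dll3 cells without it, 213 neurons and 54 remaining cells, with black lines at the medians. The median of Mfng was 1.07 RPKM in Dll3 cells with Stmn2, 502 RPKM in those without and 0 in neurons, and that of Mapt 84, 0.194 and 476 RPKM.

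Among proneural and neurogenic transcription factors, 7 of the 18 compared were higher and 1 lower at every stage, with a median difference of 1.31 from neurons and 1.36 from remaining cells. Neurog2, a bHLH factor that starts neuronal differentiation, reached 10 RPKM in 27.4% of Dll3 cells, 2.35% of neurons and 11.1% of remaining cells, with highest values of 665, 84.8 and 203 RPKM. It was thus in a minority of Dll3 cells, in 28.2%, 28.1% and 25.6% at the 3 stages. Hes6, which counters Hes1, had medians of 214 RPKM in Dll3 cells, 74.1 RPKM in neurons and 121.6 RPKM in remaining cells.

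Several genes that act after the proneural factors had their highest average in the Dll3 cells. Nhlh1 (chr1:172052292-172057596), a bHLH factor of newly formed neurons whose upstream sequence is given above, had a median of 36 RPKM and a highest value of 1022 RPKM in Dll3 cells, against 0 and 317 RPKM in neurons at E11.5. At E12.5 the values were 0 and 240.1 RPKM in Dll3 cells, against 0 and 302 RPKM in neurons, and at E13.5 0 and 163.7 RPKM in Dll3 cells, against 0 and 87.2 RPKM in neurons. More Dll3 cells than neurons were positive at each stage (61.5%, 32.8% and 32.6% of Dll3 cells, against 18.8%, 8.51% and 5.75% of neurons), although the ranges overlapped. St18 (chr1:6487231-6860940), a zinc finger factor of the Myt family, reached 10 RPKM in 41.1% of Dll3 cells, 13.1% of neurons and 1.85% of remaining cells, with highest values of 1641, 881 and 291 RPKM. Ebf2 (chr14:67233292-67430952), a helix-loop-helix regulator of neuronal differentiation, reached it in 45.9% of Dll3 cells, 16.9% of neurons and 0 of 54 remaining cells, a count that allows a share of up to 6.60% (upper end of the exact interval). Its share of Dll3 cells was 30.8%, 45.3% and 60.5% at the 3 stages. Neurod1, a bHLH factor of differentiation, was at 10 RPKM or more in 34.2%, 10.3% and 1.85% of the 3 classes. Tcf12, an E-protein partner of proneural factors, averaged 148.5 RPKM in Dll3 cells, 17.3 RPKM in neurons and 207 RPKM in remaining cells. The lower member was Myt1l, a repressor of non-neuronal genes, which averaged 21.7 RPKM in Dll3 cells, 40.03 RPKM in neurons and 0.0527 RPKM in remaining cells.

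Genes higher than in both other classes by at least 1 at every stage, called peaked, numbered 14 of 12171 (0.115%). The number depends on the processing: it was 23 without E12.5, 28 without E13.5, 32 by the ratio of mean RPKM with 8 of the 14 shared, and 0 with a pseudocount of 10 RPKM or a size of 2. They included Ebf2, Mfap4, Igsf8, Nhlh1, St18, Neurod1, Ppp1r14a, Srrm4, Tmem163, Nhlh2, Cdkn1c, Prmt8 and 3110035E14Rik, and 5 of them belong to the proneural and neurogenic list. Nhlh2 differed by 1.16 from neurons and 4.01 from remaining cells, and Ebf2 by 2.32 and 3.32. Mfap4, an extracellular microfibril protein, reached 10 RPKM in 37% of Dll3 cells, 4.69% of neurons and 7.41% of remaining cells. Igsf8, a cell surface immunoglobulin-family protein, reached it in 63%, 35.7% and 38.9%, with medians of 98.7, 0.722 and 3.19 RPKM. Gadd45g was not among the 14, since at E13.5 it differed by 0.99 from neurons and 0.81 from remaining cells.

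**Figure D4:**
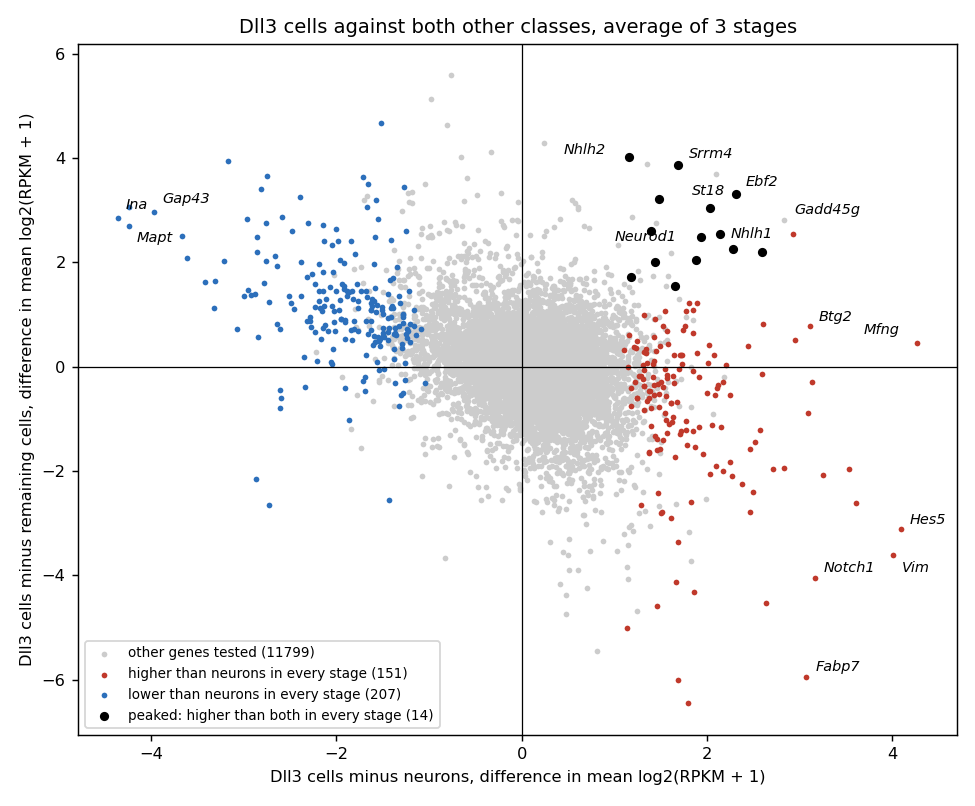
Each gene's difference in mean log2(RPKM + 1) between Dll3 cells and neurons (horizontal axis) and between Dll3 cells and remaining cells (vertical axis), averaged over 3 stages. The 14 genes higher than in both (black) lie at upper right, the other higher genes are red, the 207 lower genes are blue and all other genes grey.

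Regulators of cell cycle exit differed gene by gene. Gadd45g (chr13:51846675-51848475), a stress-induced protein that slows the cell cycle, had a median of 123.2 RPKM and a highest value of 2973 RPKM in Dll3 cells, against 0 and 824 RPKM in neurons at E11.5. At E12.5 these were 1.64 and 1988 RPKM in Dll3 cells, against 0 and 936 RPKM in neurons, and at E13.5 0 and 771 RPKM in Dll3 cells, against 0 and 415 RPKM in neurons. The share of Dll3 cells at 10 RPKM or more was 64.1% (47.2 to 78.8), 45.3% (32.8 to 58.3) and 20.9% (10.04 to 36) at the 3 stages, and that of neurons 15.6%, 8.51% and 11.49%, and the ranges overlapped. Btg2, an antiproliferative protein of neuron-producing divisions, reached 10 RPKM in 49.3% of Dll3 cells, 8.92% of neurons and 38.9% of remaining cells, and its differences from neurons were 3.89, 3.22 and 2.22. Cdkn1c, the cyclin-dependent kinase inhibitor p57, had medians of 81.9 RPKM in Dll3 cells, 14.4 RPKM in neurons and 0.630 RPKM in remaining cells. Ccnd2, a D-type cyclin that promotes rather than ends cycling, averaged 52.3 RPKM in Dll3 cells, 3.28 RPKM in neurons and 101.1 RPKM in remaining cells. Of the 10 genes compared, 3 were higher at every stage (Btg2, Cdkn1c and Ccnd2) and 0 lower, and the median was 0.70.

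From E11.5 to E13.5 a minority of Dll3 cells had the transcripts of dividing cells. At least 5 genes of the mitosis list were at 10 RPKM or more in 11% (6.40 to 17.2) of Dll3 cells, 0.939% (0.114 to 3.35) of neurons and 40.7% (27.6 to 55) of remaining cells. The share of Dll3 cells was 12.8%, 15.6% and 2.33% at the 3 stages. For the DNA replication list the shares were 13.7% of Dll3 cells, 1.41% of neurons and 53.7% of remaining cells. Of 14 mitosis genes compared 0 were higher or lower than in neurons at every stage, and of 12 replication genes 1 was higher (Mcm2, a helicase subunit) and 0 lower. The median differences of these lists were 0.63 and 0.72 from neurons, and -1.58 and -1.96 from remaining cells.

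Of 14 neural progenitor genes compared, 6 were higher in Dll3 cells than in neurons at every stage (Sox9, Vim, Nes, Fabp7, Msi1 and Prom1) and 0 lower. The median of the 14 was 0.56 from neurons and -2.49 from remaining cells. Vim, the intermediate filament vimentin, had a median of 426 RPKM and a highest value of 4332 RPKM in Dll3 cells, against 1.76 and 2279 RPKM in neurons, and between 493 and 5794 RPKM in remaining cells. It reached 10 RPKM in 78.1% of Dll3 cells and 31% of neurons, so that these classes overlapped while all 54 remaining cells were high. Fabp7, a fatty acid-binding protein of radial glia, reached it in 43.2% of Dll3 cells, 4.23% of neurons and 92.6% of remaining cells. Sox2, a progenitor transcription factor, averaged 4.52 RPKM in Dll3 cells, 0.791 RPKM in neurons and 17.3 RPKM in remaining cells. Among the other genes with large differences, Tead2, a DNA-binding partner of Yap, averaged 237 RPKM in Dll3 cells, 16.1 RPKM in neurons and 455 RPKM in remaining cells. Mdk, the secreted growth factor midkine, averaged 150.9, 14.9 and 210.0 RPKM in the same order, and Fam110a 325, 76.7 and 77.8 RPKM.

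Pan-neuronal genes had the opposite order. Of 24 compared, 11 were lower in Dll3 cells than in neurons at every stage and 0 higher, and the median was -1.42 from neurons and 2.77 from remaining cells. Stmn2, a gene of neurons, set the gate: every neuron had at least 10 RPKM of it and every remaining cell less. The order of the classes in such genes is therefore not independent of the gate. For Dll3 cells with Stmn2 alone the median from neurons was -0.44. Ina, the neurofilament protein alpha-internexin, had a median of 2.21 RPKM and a highest value of 1479 RPKM in Dll3 cells, against 479.9 and 2006 RPKM in neurons, where the lowest was 0.214 RPKM. It reached 10 RPKM in 41.8% of Dll3 cells, 92.5% of neurons and 1.85% of remaining cells. Mapt, the microtubule protein tau, had medians of 0, 0.670 and 81.2 RPKM at the 3 stages in Dll3 cells, against 202, 461 and 557 RPKM in neurons. Most neurons were high and most Dll3 cells low at E11.5 and E12.5, and the ranges overlapped at every stage. The Mapt differences were -4.59, -4.40 and -3.72, and those of Gap43, a growth cone protein, -4.39, -4.00 and -3.54. By the log2 ratio of mean RPKM the average differences were smaller, -1.61 for Mapt and -1.50 for Gap43. Tubb3 differed less, by -0.97 from neurons and 5.13 from remaining cells, with averages of 2017, 2685 and 347 RPKM in Dll3 cells, neurons and remaining cells, and lowest values of 2.37, 91.4 and 0.892 RPKM. Dcx, doublecortin, reached 10 RPKM in 70.5% of Dll3 cells, 85% of neurons and 5.56% of remaining cells. Elavl4, a neuronal RNA-binding protein, and Rbfox3, the antigen NeuN, had average differences of 1.36 and 1.04 without reaching the size at every stage.

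**Figure D5:**
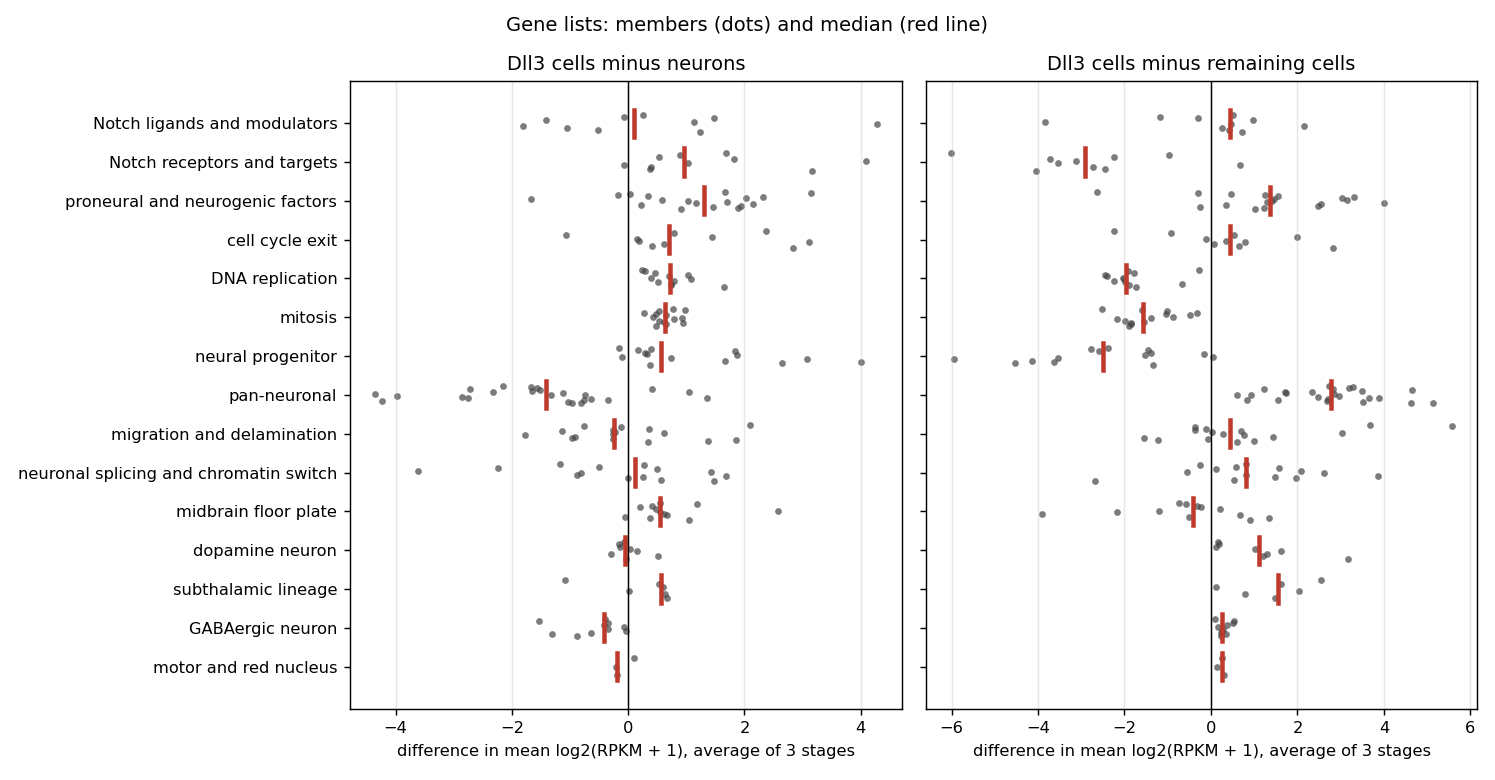
Differences in mean log2(RPKM + 1) averaged over 3 stages (horizontal axes) for the compared members (dots) of the gene lists (vertical axis), with list medians as red lines, for Dll3 cells minus neurons (left) and minus remaining cells (right). The median of the pan-neuronal list was -1.42 at left and 2.77 at right, and that of the neural progenitor list 0.56 and -2.49.

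Neural progenitors carry Actl6a in their BAF chromatin remodelling complex, and neurons carry Actl6b in its place. Actl6b had a median of 0 RPKM and a highest value of 1769 RPKM in Dll3 cells, against 182 and 1616 RPKM in neurons, and it reached 10 RPKM in 30.8% of Dll3 cells, 80.3% of neurons and 1.85% of remaining cells. Among Dll3 cells of the 3 stages pooled, it reached that level in 44 of the 93 with Stmn2 and 1 of the 53 without. Actl6a averaged 145.99 RPKM in Dll3 cells, 92 RPKM in neurons and 171.97 RPKM in remaining cells. Dpf1, another neuronal BAF subunit, averaged 110.997, 219.8 and 4.12 RPKM in the same order. Srrm4, the splicing factor of neuronal microexons, was one of the peaked genes, with medians of 36.2 RPKM in Dll3 cells, 12.3 RPKM in neurons and 0 in remaining cells. It reached 10 RPKM in 69 of the 93 Dll3 cells with Stmn2 and 36 of the 53 without. Of 14 genes in this list, 2 were higher (Srrm4 and Actl6a) and 2 lower (Actl6b and Dpf1) at every stage. Ptbp1, the splicing repressor of non-neuronal cells, differed by 1.48 on average from neurons and -2.68 from remaining cells.

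Between the 93 Dll3 cells with Stmn2 and the 53 without, 283 of 12171 genes were higher at every stage (2.33%) and 237 lower (1.95%). Median estimated depths were 1.41 M reads with Stmn2 and 1.17 M without, and median numbers of genes 4114 and 4433. Stmn2, a gene of neurons, made this division by its measured level. The order of neuronal and progenitor genes is therefore not independent of the division, and it was not tested. Of 24 pan-neuronal genes, 14 were higher in the cells with Stmn2 and 0 lower. Among 10 Notch receptors and targets 4 were lower (Notch1, Hes1, Hes5 and Id3), among 14 progenitor genes 5, among 12 replication genes 4 and among 14 mitosis genes 2, with 0 higher in these lists. Among ligands and modifiers Dll1, Mfng and Lfng were lower. The cell shares, medians and counts that follow pool the 3 stages, at which Stmn2 reached 10 RPKM in 51.3%, 64.1% and 74.4% of Dll3 cells. Dll1 reached 10 RPKM in 17.2% (10.2 to 26.4) of Dll3 cells with Stmn2 and 66% (51.7 to 78.5) of those without, with medians of 0 and 106.8 RPKM. Hes5 had medians of 1.19 RPKM with Stmn2 and 1113 RPKM without. Neurog2 was present in 16 of 93 cells with Stmn2 and 24 of 53 without. At least 5 replication genes were found in 2 of 93 cells with Stmn2 and 18 of 53 without. Tubb3 reached 10 RPKM in 49 of the 53 Dll3 cells without Stmn2, with a median of 921 RPKM, against 26 of 54 remaining cells, with a median of 8.89 RPKM. Nhlh1 was present in 34 of 93 cells with Stmn2 and 25 of 53 without, Neurod1 in 33 and 17, and Ebf2 in 46 and 21.

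The 93 Dll3 cells with Stmn2 were also set against the neurons, with no match for the level of Stmn2. Of 12171 genes, 58 were higher at every stage (0.477%) and 67 lower (0.55%). Of the 58, 48 were among the genes higher in Dll3 cells as a whole, and 65 of the 67 among the lower ones. Both comparisons share these 93 cells and the same neurons, so the overlap is not independent support. The higher genes included Mfng (average difference 2.83), St18 (2.71), Ebf2 (2.44), Nhlh2 (2.18), Neurod1 (2.15), Btg2 (2.15) and Gadd45g (1.75). The lower genes included Ina (-3.09), Mapt (-2.88) and Actl6b (-2.38). Of 24 pan-neuronal genes 7 were lower and 0 higher, and of the mitosis and replication lists 0 were higher or lower.

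Lineage genes of the ventral midbrain were also compared. Nr4a2, the nuclear receptor needed for dopamine neurons, reached 10 RPKM in 46.6% (38.3 to 55) of Dll3 cells, 45.1% (38.3 to 52) of neurons and 11.1% (4.19 to 22.6) of remaining cells. Its differences were -1.06, -0.23 and 1.18 at the 3 stages, in different directions. The Dll3 cells were divided: with the 3 stages pooled, Nr4a2 was present in 55 of the 93 with Stmn2 and 13 of the 53 without, with medians of 111.9 and 0.497 RPKM. Set against neurons, the Dll3 cells with Stmn2 differed by 1.13, 0.06 and 2.32, so that the direction over all Dll3 cells turned with this choice. Barhl1, a homeobox gene of the subthalamic lineage, reached 10 RPKM in 37%, 29.6% and 20.4% of the 3 classes, and its average difference from neurons of 0.67 was -0.31 by the ratio of mean RPKM. Both genes were present in 16.4% of Dll3 cells, 16% of neurons and 3.70% of remaining cells. Of 8 dopamine neuron genes and 6 subthalamic genes compared, 0 were higher or lower at every stage. Of 10 GABAergic genes 1 was lower and 0 higher: Lhx1, a LIM homeobox gene, averaged 17.2 RPKM in Dll3 cells, 50.3 RPKM in neurons and 0.327 RPKM in remaining cells. Of 12 floor plate genes 1 was higher: Otx2, a homeobox gene of the midbrain, averaged 215 RPKM in Dll3 cells, 57 RPKM in neurons and 279.6 RPKM in remaining cells. Of 16 migration genes 1 was higher, the chemokine receptor Cxcr4, which averaged 56.5, 9.94 and 68.1 RPKM in the same order, and 0 lower. Olig2, a bHLH factor of ventral progenitors and oligodendrocyte precursors, averaged 61.1, 6.31 and 18.6 RPKM.

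Lmx1a reached 10 RPKM in 43.6% (27.8 to 60.4), 56.2% (43.3 to 68.6) and 69.8% (53.9 to 82.8) of Dll3 cells at E11.5, E12.5 and E13.5. In neurons the shares were 43.8% (26.4 to 62.3), 46.8% (36.4 to 57.4) and 41.4% (30.9 to 52.4). EGFP transcripts reached 10 RPKM in 33.3%, 39.1% and 53.5% of Dll3 cells at the 3 stages, against 18.8%, 14.9% and 6.90% of neurons. Over the 3 stages EGFP was present in 41.8% of Dll3 cells, 12.2% of neurons and 53.7% of remaining cells, and Lmx1a in 56.8%, 44.1% and 44.4%. EGFP was thus less frequent than Lmx1a in Dll3 cells and neurons.

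Among Dll3 cells, the 83 with Lmx1a were set against the 63 without, a division by measured values that was not tested. Of 12171 genes, 56 were higher with Lmx1a at every stage (0.46%) and 7 lower (0.0575%). The 56 include Lmx1a itself, which made the division. Median estimated depths were 1.48 M reads with Lmx1a and 1.12 M without. Nr4a2 reached 10 RPKM in 67.5% (56.3 to 77.4) of cells with Lmx1a and 19% (10.2 to 30.9) of those without, with medians of 154.5 and 0.287 RPKM and highest values of 2781 and 3517 RPKM. Most cells with Lmx1a had Nr4a2, and the ranges overlapped. EGFP was present in 55 of 83 cells with Lmx1a and 6 of 63 without. Lmx1b, the paralog of Lmx1a, was present in 47 and 8, and Foxp2, a forkhead factor, in 66 and 29. Of 18 proneural and neurogenic genes, 4 were higher with Lmx1a (Neurog2, Nhlh1, Nhlh2 and Ebf2) and 0 lower. Ebf2 was present in 52 of 83 cells with Lmx1a and 15 of 63 without. In the Notch, cell cycle, progenitor and pan-neuronal lists 0 genes were higher or lower at every stage.

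The same gate at E10.5, a stage that did not choose the genes above, gave 22 Dll3 cells and 4 neurons, and all other cells were remaining cells. Dll3 cells were 16.1% (10.3 to 23.3) of the cells. Of the genes higher at the later stages, 70 (42.4%) were also higher by at least 1 at E10.5, against 17.2% of all 12171 genes. Of the lower genes 76.8% were lower, against 23.8%. A class of 4 cells makes these values depend on single cells. At E10.5 Mfng differed by 2.67 from neurons, Gadd45g by 3.04, Hes5 by 2.98, Mapt by -4.97 and Ina by -4.98. Other genes did not keep their difference: 42 of the higher genes (25.5%) were below 0 at E10.5. Of all 12171 genes 23.8% were lower by at least 1 there, so at least that share was below 0. The exact share of all genes below 0 is not given here. Fabp7 differed there by -1.73, Vim by 0.57, Fam110a by 0.65 and Dbi, an acyl-CoA-binding protein, by 0.03. At least 5 mitosis genes were found in 11 of the 22 Dll3 cells at E10.5, and at least 5 replication genes in 14, against 0 and 1 of the 4 neurons. Against the remaining cells, 13 of the 14 peaked genes were higher by at least 1 at E10.5, against 8.1% of all genes. Against the 4 neurons 3 of the 14 were higher by that size, against 17.2% of all genes. Another 6 were lower in Dll3 cells than in neurons, including Ebf2 (-2.23) and Tmem163 (-1.85).

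The E12.5 cells carried titles starting with C or F, and the labels do not say what these stand for. Dll3 cells were 42.9% (30.5 to 56) of the C cells and 32.2% (23.8 to 41.5) of the F cells. Mfng differed from neurons by 4.67 in C and 5.19 in F, and Hes5 by 5.22 in C and 4.23 in F. Gadd45g differed by 1.5 in C and 4.28 in F, and Mapt by -4.53 in C and -4.40 in F. Among peaked genes, Nhlh1 differed by 0.94 in C and 1.99 in F and Srrm4 by 0.88 in C and 1.49 in F.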

How the data were processed

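Single-cell Smart-seq2 libraries were sequenced on an Illumina instrument, per the labels. Reads were mapped with STAR 2.3.0 and the build is mm10, per the submitters' processing notes, and no source used here names the read counter, annotation or filters. The deposited values are on a log2 scale, and the lowest of them matches an offset of 0.001 added to the RPKM. They were turned back into RPKM for 25489 genes. The pools of the series were not analysed here. Cells were classed at 10 RPKM of Dll3 and Stmn2, and 12171 genes with at least 10 RPKM in at least 10 Dll3 cells or neurons counted jointly were compared, so that a gene could pass through 1 class alone. The members and the 21 gene lists were chosen with earlier results of these data known. Mean log2(RPKM + 1) was taken over the cells of each class and stage, and differences were averaged over 3 stages with equal weight. This scale understates the change of low genes.

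The genes named were the 15 with the largest average difference in each direction among those that reached the size of 1 at every stage and 20 RPKM in the higher class, the first 10 peaked genes, members of the lists, Gadd45g, Mfng, Tubb3, Lmx1a, Nr4a2, Barhl1 and EGFP. The other peaked genes were named after their values were seen, and a few genes that the rule names are not reported here. Intervals are exact Clopper-Pearson intervals at 95%. Depth was estimated from the steps between the lowest values with GENCODE exon lengths. On that estimate 10 RPKM of a 2 kb transcript is about 28.3 reads in a median cell. The calculation was tested on simulated data. Alternatives changed the pseudocount, scale, filter, gate, size, cells and stages used. Python 3.11.15, numpy 2.4.6, pandas 2.3.3, scipy 1.17.1 and matplotlib 3.10.9 were used. Positions and upstream sequences are RefSeq's on GRCm38.p6, matched by symbol.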

Additional observations from a re-analysis of the deposited data

How the results depend on the processing

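Each stage was 1 sample without replicates, measured values set the gate, and depth is rough, so counts of genes describe these cells only. With a pseudocount of 0.1 RPKM, 362 genes were higher, 377 lower and 27 peaked, and with 10 RPKM 39, 62 and 0. The ratio of mean RPKM gave 421 higher and 32 peaked genes, and 51 of the 207 lower genes were shared with it. A size of 2 gave 20 higher, 39 lower and 0 peaked genes. Dll3 cells with Stmn2 alone gave 58 higher and 67 lower genes, and those without Stmn2 gave 534 higher, 520 lower and 31 peaked. Dropping a stage asks for fewer stages: without E11.5, 277 were higher and 326 lower, without E12.5 23 were peaked, and without E13.5 368 were higher and 28 peaked. Among cells with Lmx1a, Dll3 cells were 41.3%, against 35.4% of all cells. The cause of these moves was otherwise not tested. Other counts stayed within 1.5 times. Of 736 values of 46 named genes under 16 alternatives, 558 moved by less than the spread over stages, and the others by more. In 7 of the 736 values the sign changed, 6 of Nr4a2 and 1 of Barhl1. The values without the filter and at a size of 2 are among the 558. Those alternatives could not change a gene's difference, so they say nothing about its stability. The values with a stage left out are also all among the 558. Leaving out a stage cannot move the average by more than the spread over stages. Those values could therefore not be counted as moved, and their place among the 558 says nothing about stability. Their sign could still change. Nr4a2, at -0.04, was 0.10 with a pseudocount of 0.1, 0.18 at a gate of 5 RPKM, 1.17 with Stmn2 alone, 0.08 in E12.5 series C, 0.48 without E11.5 and 0.06 without E12.5. Barhl1, at 0.67, was -0.31 by the ratio of mean RPKM. No paired analysis was possible because the samples are single cells and the labels name no embryo.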
